A study of Rattus norvegicus with 18 samples.

Results

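Dyneins, kinesins and tubulins were followed in testis RNA of chronic sleep restriction (CSR) rats and of control rats. These are the genes of the microtubule and of the motors that walk along it. A table row, which is a RefSeq transcript, was taken when its symbol began with Dnah, Dnai, Dnal and a digit, Dync, Dynl, Dctn, Kif and a digit, Klc, Tuba, Tubb, Tubg, Tubd or Tube. The rule took 53 of 7016 rows, for 50 symbols of 6682, and used no measured value. The RefSeq gene table of assembly GRCr8 holds 117 protein-coding symbols that meet the same rule. No row bore a Dnah, Tubd or Tube symbol, and these genes were not analysed here.

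RNA was sequenced from 3 testis libraries of Wistar rats in the CSR group and 3 testis libraries of Wistar rats in the control group, aged 8 weeks in both. No schedule of the sleep restriction and no other treatment is named. Nor do the labels tie each library to an animal of its own: p-values measure only how far these libraries spread, which may be technical. The submitters' codes of control libraries 1 and 2 differ only in the last digit. The study also deposited bisulfite sequencing of testis DNA, not used here. Values are FPKM, which count fragments against the length of the transcript and the size of the library, so levels of different genes can be set side by side. Poly(A) RNA of whole testis was sequenced, and in bulk tissue fewer cells of a type and less RNA per cell cannot be told apart.

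Microtubules are tubes built of alpha and beta tubulin pairs and start from rings of gamma tubulin. Dyneins walk towards the microtubule end that lies at the centrosome, and most kinesins walk the other way. In the testis microtubules build the spindles of dividing germ cells, the manchette that shapes the spermatid head, the tracks inside Sertoli cells and the axoneme of the sperm tail, whose outer and inner dynein arms make it beat. Cytoplasmic dynein works with the dynactin complex and carries cargo. A separate dynein and the Kif3 kinesin run the intraflagellar transport that assembles cilia and flagella.

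The 6 libraries had median values of 3.69 to 3.97 FPKM; 1183, 1000 and 1415 rows were listed at 0 in CSR libraries 1 to 3 and 330, 275 and 423 in control libraries 1 to 3, among them 4, 3 and 2 of the 53 rows in CSR and 1, 1 and 2 in control. Of the germ cell markers, 12 of 14 elongating spermatid genes were in the table, and their summed level was 20759 to 24078 FPKM in CSR libraries and 13016, 14499 and 22745 FPKM in control libraries 1 to 3. Summed round spermatid markers (12 of 14 genes) stood at 796 to 879 FPKM in CSR and 639 to 798 FPKM in control libraries. Sertoli markers (8 of 15 genes) summed to 117 to 125 FPKM in CSR and 124 to 134 FPKM in control libraries, and Leydig markers (7 of 9 genes) to 80.5 to 132 FPKM in CSR and 83.7 to 105 FPKM in control libraries. Spermatocyte markers (8 of 14) summed to 246 to 304 FPKM in CSR and to 279, 286 and 189.7 FPKM in control libraries 1 to 3, and spermatogonial markers (2 of 9) to 24.0 to 36.1 FPKM in CSR and 25.4 to 31.2 FPKM in control. Summed levels were 17.5 to 23.0 FPKM in CSR and 19.7 to 24.6 FPKM in control for peritubular myoid markers (7 of 9), and 13.9 to 17.5 FPKM in CSR and 17.6 to 23.6 FPKM in control for macrophage markers (7 of 10). Endothelial and blood markers (2 of 9, both haemoglobins) summed to 3.02 to 25.5 FPKM in CSR and 5.32 to 28.9 FPKM in control, and no epididymal marker had a row. No marker in the table was at 0 in all libraries. Control library 3 was in the CSR range for elongating spermatid markers and below every other library for spermatocyte markers. For round spermatid markers it stood at 798 FPKM, at the lower edge of the CSR range, and control libraries 1 and 2 at 674 and 639 FPKM. Among the tested markers limma called 1 of 7 for spermatocytes, *Ccna1*, with 10.7, 5.59 and 6.06 FPKM in CSR and 0.875, 0.841 and 0.735 FPKM in control. It also called 1 of 5 for peritubular myoid cells, *Col1a1*, listed at 0 in the 3 CSR libraries and at 2.30, 2.14 and 2.73 FPKM in control. Rows were tested when 3 or more libraries reached 1 FPKM. *Ccna1* met this only through its CSR values and *Col1a1* only through its control values, so both are given as values only. No tested marker of the other cell types was called, and 0.442% of all tested transcripts were. The median log2 fold change of tested germ cell markers was 0.35 for elongating spermatids, 0.19 for round spermatids and 0.20 for spermatocytes. It was 0.02 for the 1 tested spermatogonial row. Somatic medians were -0.04 for Sertoli cells, 0.12 for Leydig cells, -0.81 for peritubular myoid cells and -0.25 for macrophages. The 1 tested endothelial and blood row had -0.48. The part of these cell types in the results was not tested.

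In the motor and tubulin transcripts control library 3 was nearest to CSR library 1. The median absolute difference in log2(FPKM + 1) between control library 3 and CSR libraries 1, 2 and 3 was 0.09, 0.17 and 0.21, against 0.19 and 0.25 between control library 3 and control libraries 1 and 2. Pairs of CSR libraries differed by 0.15 to 0.20 and control libraries 1 and 2 by 0.16. Pearson's r over these transcripts was 0.98, 0.91 and 0.85 between control library 3 and CSR libraries 1, 2 and 3, and 0.94 and 0.90 between it and control libraries 1 and 2; transcripts are not independent replicates. Comparisons are also given without control library 3. As that library was singled out for its values, leaving it out favours larger differences, and what is called then is a description only. The control group then holds only libraries 1 and 2, the closest pair over all tested transcripts at 0.16, which may share a source.

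**Figure D1:**
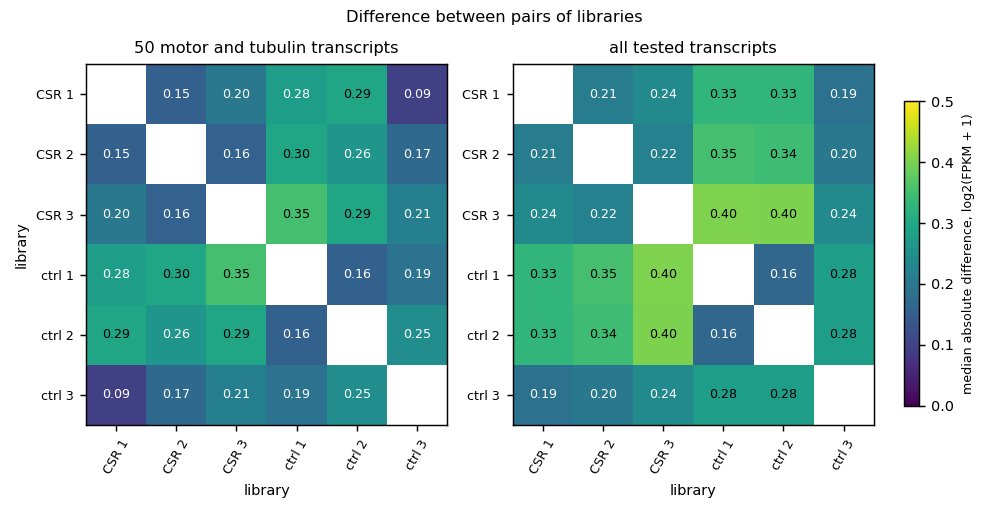
Median absolute difference in log2(FPKM + 1) between each pair of libraries (both axes: library; colour and printed number: difference), over the 50 tested motor and tubulin transcripts on the left and over all 5657 tested transcripts on the right. CSR library 1 and control library 3 were the closest pair on the left, at 0.09.

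A few of these genes were abundant in testis, and 24 of the 53 rows averaged below 10 FPKM. The median row of the group averaged 12.3 FPKM over the 6 libraries, against 4.0 FPKM for all rows of the table. Of the 53 rows, 7 (13.2%) averaged at least 100 FPKM, against 3.55% of all rows, and these 7 gave 64.9% of the summed FPKM of the group. They were *Tubb4b*, *Dynll1*, *Kif2b*, *Tuba3a*, *Tuba3b*, *Dctn2* and *Tuba8*. A further 22 rows averaged 10 to 100 FPKM, 21 averaged 1 to 10 FPKM, and 3 (*Dctn4*, *Klc4* and *Klc1*) stayed under 1 FPKM. At 36 rows the highest library was at most 2 times the lowest, and at 22 of these at most 1.5 times. All 53 rows together summed to 2036, 2083 and 2046 FPKM in CSR libraries 1 to 3 and to 1885, 1998 and 1987 FPKM in control libraries 1 to 3. As a share of the summed FPKM of the whole table this was 1.39 ± 0.00431% in CSR and 1.43 ± 0.0604% in control (mean ± SD of 3 libraries each).

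**Figure D2:**
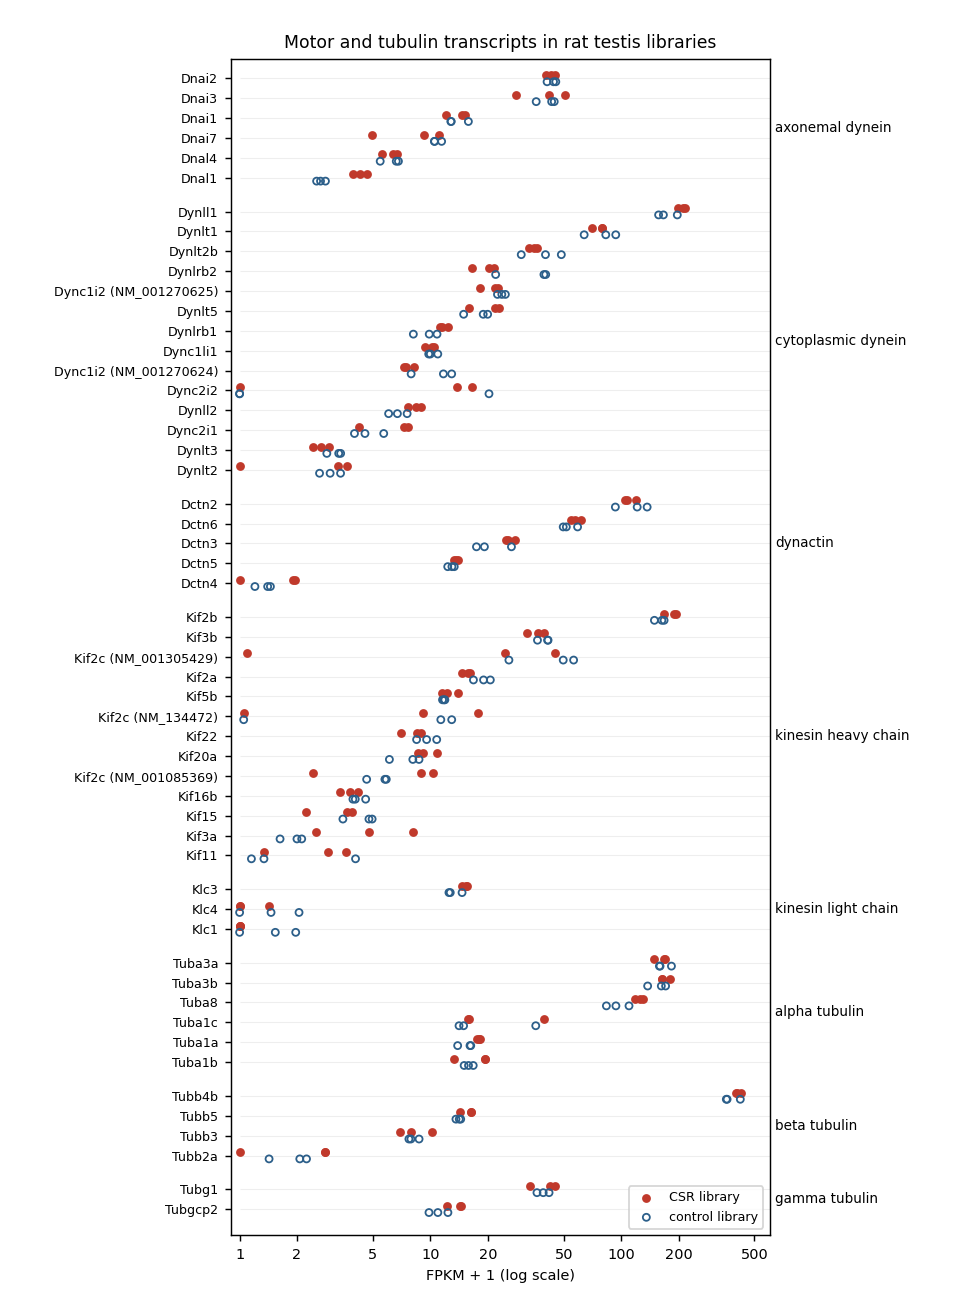
Level of each of the 53 rows in each library, by family and ordered by mean level (horizontal axis: FPKM + 1 on a log scale; filled red points: 3 CSR libraries; open blue points, drawn below them: 3 control libraries). *Tubb4b* led at 399 to 422 FPKM in CSR and 355 to 420 FPKM in control libraries, and points of both groups overlap on most lines.

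No member differed between CSR and control at the threshold used. A row was tested when 3 or more libraries reached 1 FPKM, using limma on log2(FPKM + 1), Benjamini-Hochberg adjustment over all 5657 tested transcripts and a threshold of 0.05; 50 of the 53 rows qualified. Of these 50, 0 were called, against 25 of all tested transcripts (0.442%), 13 of them higher in CSR (0.23%) and 12 lower (0.212%). The lowest adjusted p of a member was 0.262 by limma. At an unadjusted p under 0.05 by limma stood 5 members (10%), 4 higher and 1 lower in CSR, against 13.2% of all tested transcripts, 5.9% higher and 7.32% lower. All 3 CSR values lay above all 3 control values at 8 members (16%), against 8.96% of tested transcripts, and below them at 2 members (4%), against 12.6%. *Kif3a*, counted among both the 5 and the 8, passed the filter only through its CSR values. A positive log2 fold change was found for 30 members (60%) and for 44% of tested transcripts, and the median was 0.08 for members and -0.06 for all. The median for all depended on the filter. It was -0.0009 with at least 1 FPKM in all 6 libraries and 0.02 with values above 0 in all 6 libraries. The median for members was 0.08 under both filters. Differences in these shares and medians were not tested. The 95% interval of a member's log2 fold change reached 0.39 to either side in the median, from 0.21 to 3.86, and for 35 of 50 members under 0.5.

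**Figure D3:**
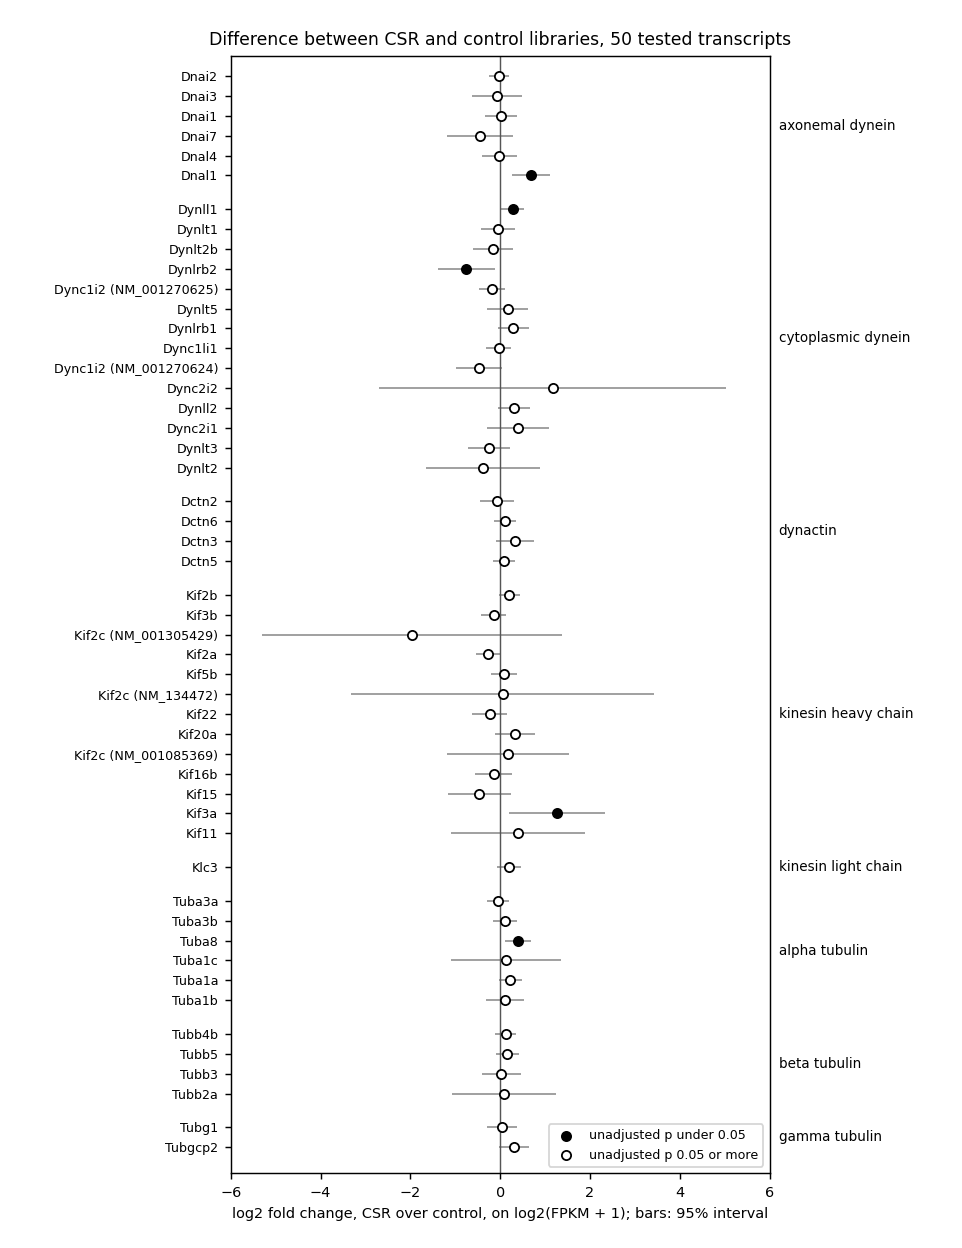
Log2 fold change of CSR over control for the 50 tested rows (horizontal axis: difference of means of log2(FPKM + 1); bars: 95% intervals from limma; filled points: unadjusted p under 0.05). No row passed the adjusted threshold, 5 filled points stand away from 0, and the widest bars belong to rows of *Kif2c* and to *Dync2i2*.

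Axonemal dynein chains, which build the arms of the sperm tail, were measured through 4 intermediate chains and 2 light chains. *Dnai2*, an intermediate chain of the outer arm, had 43.7, 41.7 and 39.5 FPKM in CSR libraries and 39.9, 43.2 and 44.4 FPKM in control libraries. Its partner *Dnai1* had 13.6, 14.2 and 11.04 FPKM in CSR and 11.9, 11.8 and 14.8 FPKM in control. Both genes overlapped between groups, and *Dnai2* stood at 3.24 ± 0.319 times *Dnai1* in CSR and 3.34 ± 0.331 times in control (mean ± SD of 3 libraries each). *Dnai3*, an intermediate chain of inner arms formerly named Wdr63, had 40.7, 49.7 and 27.2 FPKM in CSR and 43.6, 34.9 and 42.2 FPKM in control. *Dnai7*, an axonemal dynein factor formerly named Casc1, had 10.03, 8.21 and 3.97 FPKM in CSR and 9.53, 10.5 and 9.49 FPKM in control. CSR library 3 was the lowest of the 6 libraries for each of these intermediate chains. The log2 fold change of *Dnai7* was -0.44 (standard error 0.30, limma adjusted p 0.477), but -0.10 without CSR library 3 and -0.68 without CSR library 1. The 6 rows of the family summed to 116, 123 and 90.3 FPKM in CSR and 112, 107 and 117 FPKM in control.

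*Dnal1* (NM_001109477), a light chain that binds the motor domain of an outer arm heavy chain, had the smallest unadjusted p of any member. It read 3.67, 3.30 and 2.94 FPKM in CSR libraries and 1.82, 1.53 and 1.66 FPKM in control libraries. All CSR values lay above all control values, control library 3 included. Its log2 fold change was 0.69 (standard error 0.17, 95% interval 0.27 to 1.10, unadjusted p 0.00681, adjusted p 0.262 by limma). Without control library 3 it was 0.68 (adjusted p 0.117), about the same size. *Dnal4*, the other light chain, had 4.60, 5.38 and 5.65 FPKM in CSR and 5.80, 5.62 and 4.46 FPKM in control, with overlap. Of the 6 axonemal rows 2 were positive and 4 negative, and their median log2 fold change of -0.02 was 0.06 without CSR library 3.

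Promoter windows of 250 bases before to 50 after the annotated start were taken from RefSeq (GRCr8) for 45 of the 50 genes. X-boxes, which RFX factors of ciliated cells bind, were searched on both strands as GTTGC followed, after 3 or 4 bases, by GNAAC. A match lay in the windows of 3 of 45 genes (6.67%). The share was 1.94% of 5565 genes of the table and 1.41% of all 27457 genes with a window. The 3 genes were *Dnai1*, *Dnai2* and *Dynlrb2*. Their windows are printed to show where the match lies in the axonemal chains *Dnai1* and *Dnai2* and the cytoplasmic dynein light chain *Dynlrb2*. They come from chr5:61525829-61526128 on the plus strand, chr10:100258772-100259071 on the plus strand and chr19:61428830-61429129 on the plus strand, and capitals mark the X-box match.
Dnai1: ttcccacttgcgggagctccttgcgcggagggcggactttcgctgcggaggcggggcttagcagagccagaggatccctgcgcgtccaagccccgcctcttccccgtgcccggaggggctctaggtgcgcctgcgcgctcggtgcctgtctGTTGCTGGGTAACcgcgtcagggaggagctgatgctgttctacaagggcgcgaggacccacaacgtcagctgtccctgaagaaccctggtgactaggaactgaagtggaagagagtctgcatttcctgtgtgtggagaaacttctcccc
Dnai2: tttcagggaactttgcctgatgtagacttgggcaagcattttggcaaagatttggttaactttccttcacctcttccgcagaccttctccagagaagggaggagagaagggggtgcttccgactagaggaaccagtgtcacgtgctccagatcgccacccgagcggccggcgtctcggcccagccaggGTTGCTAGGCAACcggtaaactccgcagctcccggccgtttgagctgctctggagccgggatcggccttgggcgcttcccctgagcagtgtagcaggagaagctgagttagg
Dynlrb2: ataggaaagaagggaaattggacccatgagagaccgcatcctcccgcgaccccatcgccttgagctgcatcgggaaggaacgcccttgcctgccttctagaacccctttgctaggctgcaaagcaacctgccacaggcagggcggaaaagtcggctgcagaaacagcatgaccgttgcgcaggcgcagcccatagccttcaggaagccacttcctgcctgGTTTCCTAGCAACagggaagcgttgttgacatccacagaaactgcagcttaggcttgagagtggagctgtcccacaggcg
The match began 99 bases before the annotated start in *Dnai1*, 62 before it in *Dnai2* and 30 before it in *Dynlrb2*. In *Dnai2* the letters GTTGCTAGGCAAC match on both strands. The motifs were chosen with earlier results of these data known, and a match describes letters only.

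Cytoplasmic dynein light chains were led by *Dynll1* (NM_053319), a small light chain that dynein shares with many other complexes. It read 197, 210.4 and 216 FPKM in CSR libraries and 156, 166 and 196 FPKM in control libraries. The lowest CSR value stood just above control library 3, the highest control. The log2 fold change was 0.27 (standard error 0.11, 95% interval 0.01 to 0.54, unadjusted p 0.0457, adjusted p 0.372 by limma), and it was 0.37 without control library 3 (adjusted p 0.0593). By limma it was 0.15 with quantile normalization (adjusted p 0.423) and 0.24 with upper quartile scaling (adjusted p 0.371). With either of these, and without the mean-variance trend, *Dynll1* was not among the members at an unadjusted p under 0.05. *Dynll1* made up 55.3 ± 1.27% of the summed FPKM of Dynl light chains in CSR and 48.1 ± 5.53% in control (mean ± SD of 3 libraries each). Its paralog *Dynll2* had 7.98, 7.43 and 6.65 FPKM in CSR and 5.72, 5.04 and 6.55 FPKM in control, giving a log2 difference of 0.31 (standard error 0.15, adjusted p 0.392 by limma). Both paralogs showed all CSR values above all control values, by a narrow gap to control library 3. Elongating spermatid markers, given above, were likewise high in the CSR libraries and in control library 3, and their part in these values was not tested.

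The roadblock light chains had log2 fold changes of opposite sign. *Dynlrb2* (NM_001108451), the form known from tissues with motile cilia and from testis, read 20.6, 15.5 and 19.3 FPKM in CSR libraries and 39.2, 38.4 and 21.0 FPKM in control libraries. All CSR values lay below all control values, but control library 3 stood close to the highest CSR value. Its log2 fold change was -0.76 (standard error 0.26, 95% interval -1.40 to -0.12, unadjusted p 0.0273, adjusted p 0.363 by limma). Without control library 3 it was -1.04 with an adjusted p of 0.0321, 1 of 2 calls among the 50 members (4%) where 259 of all tested transcripts (4.58%) were called. The adjusted p was 0.687 without control library 1, 0.682 without control library 2 and 0.696 with these libraries counted as 1. *Dynlrb1*, the form used more widely, had 10.2, 11.3 and 10.6 FPKM in CSR and 8.86, 7.14 and 9.83 FPKM in control, again without overlap but in the other direction. *Dynlrb2* stood at 1.74 ± 0.336 times *Dynlrb1* in CSR, and at 4.43, 5.37 and 2.13 times it in control libraries 1 to 3.

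**Figure D4:**
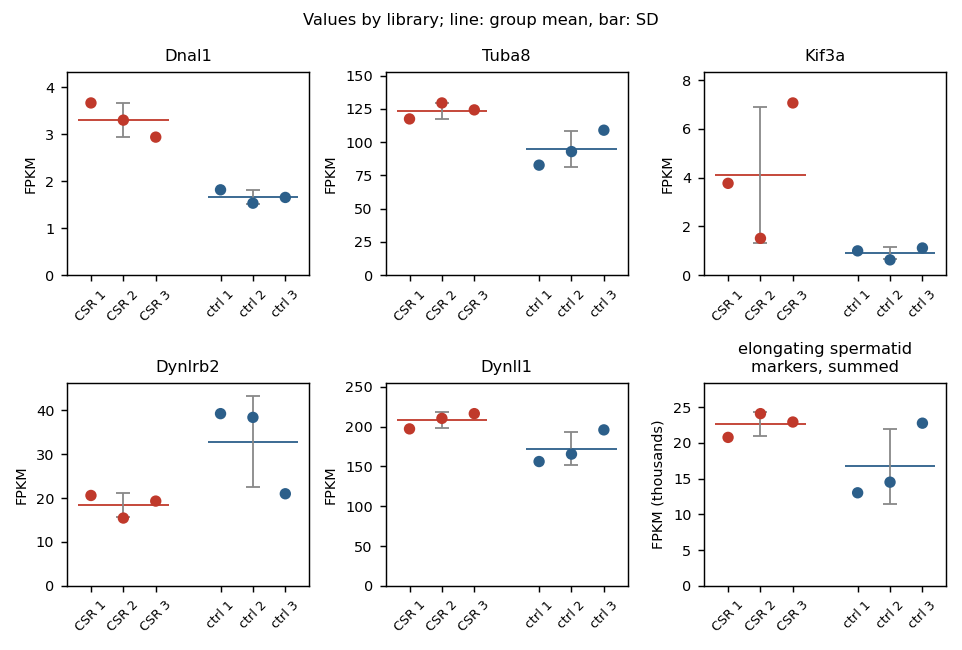
FPKM by library for the 5 members with an unadjusted p under 0.05, and the summed FPKM of 12 elongating spermatid marker genes divided by 1000 (points: libraries; lines: group means; bars: SD over 3 libraries). Control library 3 stands with the CSR libraries for *Dynlrb2* (21.0 FPKM) and for the spermatid markers, and with the other controls for *Dnal1* and *Kif3a*.

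The Tctex-type light chains overlapped between groups. *Dynlt1*, the most abundant, had 78.2, 69.8 and 78.6 FPKM in CSR and 92.7, 63.0 and 82.1 FPKM in control. *Dynlt2b*, a light chain of the intraflagellar transport dynein, had 33.8, 32.0 and 35.1 FPKM in CSR and 47.6, 39.1 and 28.9 FPKM in control. The CSR values were tight and the control values spread around them. *Dynlt5* had 15.0, 20.8 and 21.9 FPKM in CSR and 13.9, 17.9 and 19.0 FPKM in control. *Dynlt3* had 1.68, 1.93 and 1.44 FPKM in CSR and 2.31, 2.39 and 1.87 FPKM in control, giving a log2 difference of -0.25 (standard error 0.19, adjusted p 0.515 by limma). *Dynlt2*, a testis light chain formerly named Tcte3, was listed at 0 in CSR library 1 and at 2.64 and 2.27 FPKM in the other CSR libraries, against 1.98, 2.38 and 1.62 FPKM in control. Its log2 fold change of -0.39 turned to 0.21 without CSR library 1, the library at 0, and was -0.72 and -0.64 without CSR libraries 2 and 3.

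Intermediate chains link dynein to cargo and to dynactin. *Dync1i2* had 2 rows: NM_001270625 read 21.7, 17.3 and 20.8 FPKM in CSR and 23.7, 22.7 and 21.5 FPKM in control, and NM_001270624 read 7.25, 6.42 and 6.24 FPKM in CSR and 11.9, 10.7 and 6.93 FPKM in control. The log2 fold changes were -0.18 (standard error 0.12, adjusted p 0.462) for the first and -0.48 (standard error 0.21, adjusted p 0.378) for the second, by limma. The second row gave 25.1, 27.1 and 23.1% of the summed level of the gene in CSR libraries and 33.5, 32.1 and 24.4% in control libraries. The first value was -0.09 without CSR library 2. Control library 3 read as the CSR libraries did in the second row, which without it had a log2 fold change of -0.69 (adjusted p 0.0557). *Dync1li1*, a light intermediate chain, was steady at 9.40, 8.36 and 9.24 FPKM in CSR and 8.80, 9.94 and 8.99 FPKM in control.

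The intermediate chains of the intraflagellar transport dynein were uneven among libraries of each group. *Dync2i1*, formerly Wdr60, had 6.30, 3.21 and 6.62 FPKM in CSR and 3.00, 3.54 and 4.69 FPKM in control, giving a log2 difference of 0.39 (standard error 0.28, adjusted p 0.495 by limma) that was 0.67 without CSR library 2 and 0.24 without CSR library 3. *Dync2i2* (NM_001005542), formerly Wdr34, was listed at 0 in CSR library 1 and in control libraries 1 and 3, and at 15.6, 12.9 and 19.3 FPKM in CSR libraries 2 and 3 and control library 2. The values split within both groups, so no fold change is given. An exact 0 can be a failed estimate, and 6 of the 53 rows held at least one. Of all 14 cytoplasmic dynein rows, 6 were positive and 8 negative, and their median log2 fold change of -0.04 became 0.07, 0.01 and 0.02 without CSR library 1, CSR library 2 and control library 1.

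Dynactin, the activator of cytoplasmic dynein, was represented by 5 subunits. *Dctn2*, known as dynamitin, was the most abundant with 104, 106 and 119 FPKM in CSR and 120.4, 136 and 92.2 FPKM in control. *Dctn6*, of the pointed-end complex, had 60.6, 56.2 and 53.5 FPKM in CSR and 50.6, 48.7 and 58.1 FPKM in control, and *Dctn5* of the same complex had 12.7, 12.3 and 12.9 FPKM in CSR and 11.3, 12.0 and 12.3 FPKM in control. Groups overlapped for all 3 of these subunits. *Dctn3*, the smallest of the shoulder subunits, had 26.6, 23.8 and 24.4 FPKM in CSR and 18.2, 16.4 and 25.6 FPKM in control. Control library 3 lay inside the CSR range; the log2 fold change was 0.32 (standard error 0.17, adjusted p 0.412 by limma) but 0.50 without that library (adjusted p 0.0581) and 0.20 without control library 2 (adjusted p 0.706). *Dctn4* was not tested, with 0.944, 0 and 0.914 FPKM in CSR and 0.203, 0.450 and 0.403 FPKM in control.

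Among kinesins, the microtubule-depolymerising group was prominent. *Kif2b*, a spindle depolymerase in human cells, had 166, 189 and 193 FPKM in CSR and 148, 162 and 167 FPKM in control, more than any other kinesin. It gave 59.6 ± 5.31% of the summed kinesin heavy chain level in CSR libraries, against 52.4 ± 5.73% in control libraries (mean ± SD of 3 libraries each). *Kif2a*, its widely expressed relative, had 14.8, 15.2 and 13.7 FPKM in CSR and 18.0, 19.6 and 15.8 FPKM in control. All CSR values lay below all control values for *Kif2a*, with a log2 fold change of -0.27 (standard error 0.12, unadjusted p 0.0571, adjusted p 0.376 by limma) that was -0.35 without control library 3 (adjusted p 0.112).

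*Kif2c*, a depolymerase of centromeres and spindles, had 3 rows whose values moved from library to library. NM_001305429 read 23.5, 44.1 and 0.0976 FPKM in CSR libraries 1 to 3 and 48.7, 55.3 and 24.8 FPKM in control libraries 1 to 3. NM_134472 read 0.0574, 16.8 and 8.15 FPKM in CSR and 11.9, 10.3 and 0.0504 FPKM in control, and NM_001085369 read 7.93, 1.43 and 9.36 FPKM in CSR and 4.87, 4.78 and 3.63 FPKM in control. The first row held 74.7 and 70.8% of the gene's level in CSR libraries 1 and 2 but 0.554% in CSR library 3, against 74.3 to 87.1% in control. Summed over rows the gene stood at 31.5, 62.2 and 17.6 FPKM in CSR and 65.5, 70.5 and 28.5 FPKM in control, so control library 3 lay within the CSR range. The log2 fold change of the first row was -1.97 (standard error 1.37, adjusted p 0.482 by limma), but -0.33 without CSR library 3 and -3.00 without CSR library 2. How fragments were divided among rows of 1 gene is not given in the sources used here.

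**Figure D5:**
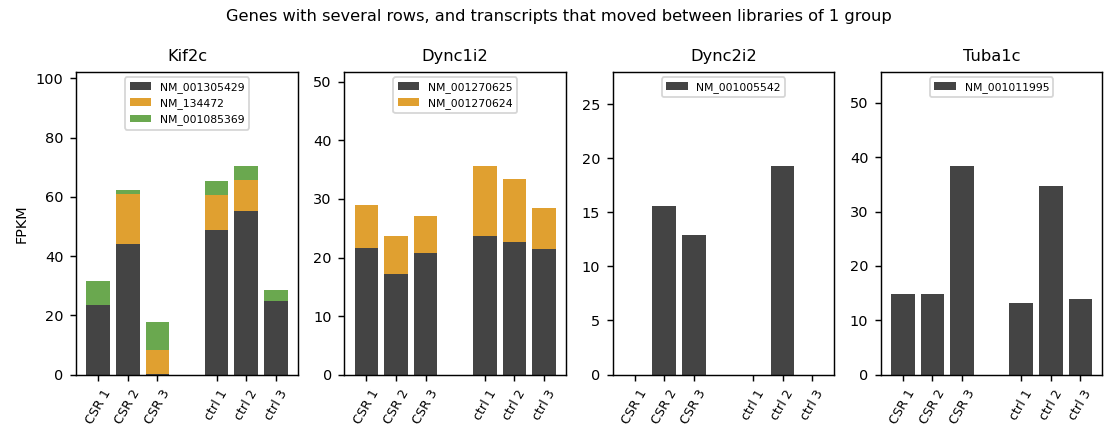
FPKM of *Kif2c* and *Dync1i2* by library with their rows stacked, and of *Dync2i2* and *Tuba1c*, each with 1 row (vertical axes: FPKM, from 0; CSR libraries left, control libraries right). The leading *Kif2c* row is nearly missing in CSR library 3, *Dync2i2* is listed at 0 in 3 libraries, and *Tuba1c* is high in CSR library 3 and control library 2 alone.

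*Kif3a* and *Kif3b* encode the paired motor subunits of anterograde intraflagellar transport. *Kif3a* (NM_053377) read 3.77, 1.51 and 7.06 FPKM in CSR libraries and 0.998, 0.629 and 1.12 FPKM in control libraries. All CSR values lay above all control values, but the CSR libraries differed among themselves by more than the control libraries did. The row passed the filter only through its CSR values, as control library 3 alone among controls reached 1 FPKM. The log2 fold change was 1.27 (standard error 0.44, 95% interval 0.20 to 2.34, unadjusted p 0.0268, adjusted p 0.363 by limma), and 1.35 without control library 3 (adjusted p 0.214). By limma it was 1.70 without CSR library 2 (adjusted p 0.113) and 0.86 without CSR library 3 (adjusted p 0.547). *Kif3b* had 38.4, 35.6 and 30.9 FPKM in CSR and 40.2, 40.4 and 35.4 FPKM in control. *Kif3b* therefore stood at 10.2, 23.5 and 4.38 times *Kif3a* in CSR libraries and at 40.2, 64.2 and 31.7 times in control libraries. The control ratios rest on *Kif3a* values near 1 FPKM.

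Of the kinesins of dividing cells, *Kif20a*, *Kif22*, *Kif15* and *Kif11* averaged below 10 FPKM. *Kif2b* and the leading *Kif2c* row, given above, averaged 171 and 32.8 FPKM. *Kif20a*, which acts in cytokinesis, had 9.88, 8.19 and 7.64 FPKM in CSR and 7.09, 7.72 and 5.10 FPKM in control, giving a log2 difference of 0.34 (standard error 0.18, adjusted p 0.417 by limma) that was 0.18 without control library 3. *Kif22*, which binds chromosome arms, had 7.96, 6.00 and 7.52 FPKM in CSR and 8.56, 7.47 and 9.79 FPKM in control (log2 fold change -0.24, standard error 0.16, adjusted p 0.474, and -0.13 without CSR library 2 or -0.15 without control library 3). *Kif15*, a spindle kinesin, had 1.22, 2.65 and 2.88 FPKM in CSR and 2.48, 3.95 and 3.76 FPKM in control (log2 fold change -0.46, standard error 0.29, adjusted p 0.454, and -0.21 without CSR library 1). *Kif11*, the motor that pushes spindle poles apart, had 1.89, 2.63 and 0.346 FPKM in CSR and 0.153, 0.341 and 3.05 FPKM in control. *Kif11* split within each group, and its log2 difference of 0.39 (standard error 0.61, limma adjusted p 0.741) depended on the libraries kept. Leaving out CSR library 2 or 3 gave 0.10 or 0.81, and leaving out control library 1, 2 or 3 gave 0.05, 0.16 or 0.96. These 4 genes did not share a direction, 2 being positive and 2 negative, and summed to 20.9, 19.5 and 18.4 FPKM in CSR and 18.3, 19.5 and 21.7 FPKM in control.

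Transport kinesins overlapped between groups. *Kif5b*, the conventional kinesin heavy chain, had 12.9, 11.2 and 10.4 FPKM in CSR and 10.9, 10.8 and 10.6 FPKM in control, and *Kif16b*, an endosome kinesin, had 2.79, 3.17 and 2.37 FPKM in CSR and 3.58, 3.04 and 2.93 FPKM in control. Of the kinesin light chains, *Klc3*, which in rat binds sperm tail fibres, had 14.6, 14.5 and 13.7 FPKM in CSR and 11.5, 13.7 and 11.7 FPKM in control, without overlap but with control library 2 next to CSR library 3. *Klc1* stood at 0 in the 3 CSR libraries and in control library 2, and at 0.968 and 0.539 FPKM in control libraries 1 and 3. *Klc4* was at 0.429, 0 and 0 FPKM in CSR and 1.05, 0.461 and 0 FPKM in control, and neither was tested. The 13 kinesin heavy chain rows split into 7 positive and 6 negative log2 fold changes with a median of 0.05, which became -0.14 when the rows of each gene were summed or 1 FPKM was asked of all 6 libraries, and -0.15 to -0.07 without control library 3 or without any 1 CSR library.

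Alpha tubulin was supplied mainly by *Tuba3a*, *Tuba3b* and *Tuba8*, which together made up 89.0 ± 1.77% of its summed FPKM in CSR libraries and 89.4 ± 1.99% in control libraries (mean ± SD of 3 libraries each). *Tuba8* (NM_001024339) read 117, 129 and 124 FPKM in CSR libraries and 82.7, 92.9 and 109 FPKM in control libraries. All CSR values lay above all control values, and control library 3 was the highest control. Its log2 fold change was 0.39 (standard error 0.12, 95% interval 0.10 to 0.68, unadjusted p 0.0169, adjusted p 0.363 by limma). Without control library 3 it was 0.49 with an adjusted p of 0.0474, the other of the 2 member calls (4%, against 4.58% of all tested transcripts). The adjusted p was 0.687 without control library 1, 0.682 without control library 2 and 0.696 with these libraries counted as 1. Elongating spermatid markers, given above, were also highest among controls in control library 3, where they reached the CSR range, and their part in the value of *Tuba8* was not tested.

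*Tuba3a* had 168, 167 and 147 FPKM in CSR and 158, 182 and 159 FPKM in control, and *Tuba3b* had 163, 163 and 178 FPKM in CSR and 137, 161 and 170.0 FPKM in control. These testis alpha tubulins are near-identical copies, so how fragments were divided between them is uncertain; the ratio of *Tuba3a* to *Tuba3b* was 0.960 ± 0.118 in CSR and 1.07 ± 0.120 in control. *Tuba1a* had 17.2, 16.9 and 16.6 FPKM in CSR and 12.9, 15.1 and 15.3 FPKM in control, without overlap. *Tuba1b* had 18.3, 18.4 and 12.3 FPKM in CSR and 14.0, 14.8 and 15.8 FPKM in control. *Tuba1c* had 14.9, 14.8 and 38.4 FPKM in CSR and 13.1, 34.7 and 13.9 FPKM in control. The high value fell on 1 library of each group.

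Beta tubulin was almost wholly *Tubb4b* (NM_199094), the isotype of axonemes and the most abundant member. It read 422, 399 and 406 FPKM in CSR libraries and 355, 358 and 420.3 FPKM in control libraries, above 99.5% of all rows of the table in mean level. Control library 3 lay inside the CSR range, next to the highest CSR library. *Tubb4b* made up 94.6 ± 0.408% of summed beta tubulin in CSR and 94.7 ± 0.439% in control (mean ± SD of 3 libraries each). *Tubb5* had 15.4, 15.4 and 13.2 FPKM in CSR and 12.6, 13.4 and 13.2 FPKM in control, and *Tubb3*, best known from neurons, had 9.21, 6.87 and 5.96 FPKM in CSR and 6.72, 7.72 and 6.91 FPKM in control. *Tubb2a* was listed at 0 in CSR library 1 and at 1.81 and 1.79 FPKM in the other CSR libraries, against 1.07, 0.427 and 1.24 FPKM in control.

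Alpha and beta tubulin together summed to 945, 932 and 944 FPKM in CSR libraries and 792, 881 and 924 FPKM in control libraries. All CSR sums lay above all control sums, and the sum over all rows of the table did so too, at 146508, 150040 and 146497 FPKM in CSR and 130081, 135270 and 145923 FPKM in control. As a share of that sum tubulin stood at 0.637 ± 0.0136% in CSR and 0.631 ± 0.0212% in control, within the spread. The ratio of summed alpha to summed beta tubulin was 1.178 ± 0.0519 in CSR and 1.175 ± 0.126 in control (mean ± SD of 3 libraries each). Of the 10 alpha and beta tubulin rows 9 had a positive log2 fold change, with a median of 0.11, and 0 of 10 were called by limma, with 1 at an unadjusted p under 0.05.

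Windows of the leading tubulin promoters are printed because these 3 genes hold most of the tubulin level and because *Tuba3a* and *Tuba3b* are copies. CCAAT was searched on both strands, and in *Tubb4b* TATAAA too; capitals mark the matches. The windows (RefSeq, GRCr8) are chr3:28438406-28438705 on the minus strand for *Tubb4b*, chr4:159770151-159770450 on the minus strand for *Tuba3a* and chr4:180319350-180319649 on the plus strand for *Tuba3b*, each written in the direction of the gene.
Tubb4b: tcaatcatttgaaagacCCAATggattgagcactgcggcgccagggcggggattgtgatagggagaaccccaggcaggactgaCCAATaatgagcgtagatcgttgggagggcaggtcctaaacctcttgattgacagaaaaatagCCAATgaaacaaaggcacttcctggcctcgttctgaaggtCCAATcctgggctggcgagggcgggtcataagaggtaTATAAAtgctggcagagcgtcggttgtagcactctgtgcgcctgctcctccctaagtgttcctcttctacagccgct
Tuba3a: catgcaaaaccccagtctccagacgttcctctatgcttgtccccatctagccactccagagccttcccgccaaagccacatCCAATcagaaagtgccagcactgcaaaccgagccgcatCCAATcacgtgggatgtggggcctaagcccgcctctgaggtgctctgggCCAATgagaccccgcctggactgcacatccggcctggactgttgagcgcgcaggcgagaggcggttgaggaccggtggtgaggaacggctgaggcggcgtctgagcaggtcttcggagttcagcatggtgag
Tuba3b: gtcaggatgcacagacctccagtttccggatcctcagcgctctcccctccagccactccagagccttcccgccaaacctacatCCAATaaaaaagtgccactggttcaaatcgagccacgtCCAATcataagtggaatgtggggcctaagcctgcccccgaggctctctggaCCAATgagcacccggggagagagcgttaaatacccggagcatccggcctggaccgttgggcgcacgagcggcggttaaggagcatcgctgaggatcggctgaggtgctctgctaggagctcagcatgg
*Tubb4b* held 4 CCAAT matches and a TATAAA that began 27 bases before the annotated start, while *Tuba3a* and *Tuba3b* held 3 CCAAT matches each at nearly the same places. In a global alignment 234 of 270 aligned bases of the *Tuba3a* and *Tuba3b* windows were identical (86.7%). CCAAT lay in 26 of 45 member genes (57.8%), against 40.4% of genes of the table and 39.6% of all genes with a window. TATAAA lay in 5 of 45 (11.1%), against 7.03% and 15.3%. The cyclic AMP element TGACGTCA, also searched on both strands, lay in 4 of 45 (8.89%), against 3.94% and 2.00%. These 4 were *Dctn3*, *Kif15*, *Klc1* and *Tubb2a*.

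Gamma tubulin *Tubg1*, which starts new microtubules, had 41.4, 44.2 and 32.4 FPKM in CSR and 35.2, 38.0 and 40.9 FPKM in control. *Tubgcp2*, a subunit of its ring complex, had 13.3, 11.2 and 13.6 FPKM in CSR and 8.83, 9.94 and 11.4 FPKM in control. The highest control, library 3, exceeded the lowest CSR value, and the log2 fold change of *Tubgcp2* was 0.31 (standard error 0.14, unadjusted p 0.0656, adjusted p 0.380 by limma) and 0.39 without control library 3 (adjusted p 0.159).

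Other genes of the microtubule system were read from 10 lists, with 146 rows of which 132 were tested. None of the 132 was called by limma; 17 (12.9%) had an unadjusted p under 0.05, 6 higher and 11 lower in CSR, a share near the 13.2% of all tested transcripts. The genes of these lists named here are those with the smallest p in their lists and are given as values. The lists covered dynein arm assembly and docking (18 tested, median log2 fold change 0.10), radial spokes, nexin links and the central pair (18, 0.12), dynein adaptors (12, -0.11), kinesin adaptors (6, -0.02), intraflagellar transport (20, -0.11), tubulin folding (20, -0.11), tubulin modification (15, -0.08), microtubule binding and severing (13, 0.01), microtubule nucleation (7, -0.34) and the manchette (4, -0.16), beside -0.06 for all tested transcripts. The value for all tested transcripts depended on the filter, as given above.

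*Tppp2*, named for the tubulin polymerisation promoting protein family and known from spermatids, read 131, 115 and 121 FPKM in CSR and 18.2, 51.0 and 36.9 FPKM in control. It had the smallest p of these lists. All CSR values were above all controls by a wide gap, control library 3 included, and the limma adjusted p was 0.143. *Cct6b*, a testis subunit of the chaperonin that folds tubulin, read 38.6, 37.5 and 37.8 FPKM in CSR and 5.76, 6.37 and 35.3 FPKM in control. Here control library 3 read as the CSR libraries did, and the somatic paralog *Cct6a* had 12.1, 11.1 and 11.8 FPKM in CSR and 18.7, 17.7 and 13.2 FPKM in control, with control library 3 again the nearest to CSR. *Cluap1*, of the intraflagellar transport particle, had 2.70, 5.92 and 11.6 FPKM in CSR and 2.25, 2.12 and 1.88 FPKM in control, while its partner *Ift56* had 14.0, 13.2 and 11.7 FPKM in CSR and 19.3, 17.3 and 15.6 FPKM in control. The groups did not overlap at either gene.

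In the axoneme lists the lowest unadjusted p values were those of *Cfap52* and *Lrrc46*. *Cfap52*, an inner microtubule protein, had 29.5, 29.1 and 29.7 FPKM in CSR and 42.1, 42.7 and 33.8 FPKM in control, and *Lrrc46*, a sperm tail protein, had 19.5, 18.9 and 25.0 FPKM in CSR and 15.9, 10.6 and 11.6 FPKM in control. *Hook1*, the dynein adaptor of the manchette, had 36.5, 34.2 and 35.5 FPKM in CSR and 42.2, 47.0 and 38.4 FPKM in control. In the nucleation list the augmin subunits *Haus4* (5.71, 2.42 and 3.94 FPKM in CSR, 7.46, 6.79 and 6.85 FPKM in control), *Haus1* and *Haus7* had all CSR values below all control values. None of these passed the threshold by limma.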

How the data were processed

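RNA-seq of rat testis was analysed in 3 CSR and 3 control libraries. The authors deposited FPKM values by RefSeq transcript. Per the submitters' processing notes the tools were StringTie, HISAT2 and Trimmomatic, on build rn6; their versions and settings, and why these transcripts were kept, are not stated in the sources used here. Among 4957 values between 0 and 1 FPKM, 4947 were distinct, with no steps of whole reads, so depth is unknown and no counting interval is given. Of 7016 rows, 6911 matched a symbol of the RefSeq gene table (GRCr8) by accession and 105 did not.

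The 5657 rows that reached 1 FPKM in 3 or more libraries were tested with limma 3.58.1 in R 4.3.3 on log2(FPKM + 1), with a mean-variance trend, two-sided, and Benjamini-Hochberg adjustment over all tested rows at 0.05. A fold change on this scale, pseudocount 1, understates the change of low transcripts. The fit was tested on simulated data. Fits that leave out a library keep the same tested rows. The members and lists were chosen with earlier results of these data known. Members named with a fold change are the 10 largest and 10 smallest tested log2 fold changes, and those without overlap at an unadjusted p under 0.05; the 4 highest means per family, genes with several rows and other members are given as values, and up to 3 transcripts per other list by smallest p. The other settings tried were pseudocounts, filters, normalizations, limma options, rows summed per symbol, control libraries 1 and 2 counted as 1, each library left out, and a replicate block. Bisulfite libraries were left out because no rn6 annotation was used here. Tables were handled with Python 3.11.15, pandas 2.3.3 and Biopython 1.88.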

Additional observations from a re-analysis of the deposited data

How the results depend on the processing

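No member was called in 17 of 18 alternatives; the count was 2 without control library 3 and 0 when any other library was left out, so from 0 to 2, with 12 members at an unadjusted p under 0.05 in that comparison (all tested transcripts: 24.3%). Over all tested transcripts the 25 calls became 11 with a pseudocount of 0.1, 10 with at least 1 FPKM in all 6 libraries, 16 with values above 0 in all 6 libraries, 77 without the mean-variance trend, 7 with control libraries 1 and 2 counted as 1, and 4 to 259 when each library was left out in turn (20, 14 and 7 without CSR libraries 1, 2 and 3; 8, 4 and 259 without control libraries 1, 2 and 3). With the replicate number as a block, 0 transcripts were called by limma, with 715 at an unadjusted p under 0.05, and 0 members, with 6. Same-numbered libraries deviated from their group means with correlations of 0.03, 0.01 and 0.04. Such values do not decide whether libraries of the same number were paired, and this was not tested. The median log2 fold change of members was 0.0203 with quantile normalization and 0.035 to 0.081 over the libraries left out. The median of all tested transcripts, -0.06 in the main fit, was -0.0009 with at least 1 FPKM in all 6 libraries. With values above 0 in all 6 libraries it was 0.0195. Of 368 values of named members under the alternatives, 365 kept direction and side of the threshold, 2 gained a call (*Tuba8* and *Dynlrb2*, both without control library 3) and 1 turned, *Dynlt2* without CSR library 1; over the libraries left out *Dynlt2* ranged from -0.72 to 0.21. The kinesin heavy chain median turned negative under 6 alternatives, to between -0.15 and -0.07. The causes were not tested.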
